A study of Mus musculus with 6 samples.

Results

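The genes described here are 37 mouse genes of antioxidant defence, glutathione use and iron storage, chosen by name from a table of 54532 gene identifiers. All 37 were found by symbol, and all 37 passed the filter on low counts. They hold the transcription factor Nfe2l2 (NRF2) with its inhibitor Keap1, the enzymes of heme breakdown and quinone reduction, glutathione synthesis, NADPH supply, glutathione peroxidases, superoxide dismutases and catalase, peroxiredoxins, the thioredoxin system, glutathione transferases and the ferritin subunits. RNA was sequenced from epididymal white adipose tissue, the visceral fat pad beside the mouse testis, after 16 weeks of high-fat diet. The 3 knockout libraries came from PD-1fl/fl Lyz2-Cre mice, in which Cre made by Lyz2-expressing myeloid cells deletes the floxed gene of the immune checkpoint receptor PD-1. The 3 control libraries came from PD-1fl/fl littermates without Cre, which carried the same floxed allele and ate the same diet. The study asked what macrophage PD-1 does in diet-induced obesity. Since the whole tissue was sequenced, fewer cells of a type and less RNA per cell cannot be told apart in any value below.

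KEAP1 holds NRF2 at low levels by marking it for degradation, and oxidants or electrophiles that modify KEAP1 let NRF2 reach the nucleus. There it pairs with small MAF proteins on antioxidant response elements and raises genes for glutathione synthesis, NADPH supply, thioredoxin reduction and ferritin. Glutathione and thioredoxin, both kept reduced with NADPH, pass electrons to peroxidases, while ferritin stores iron in a form that does not catalyse radical formation. In obese fat, adipocytes and lipid-laden macrophages both draw on these systems, and macrophages also take up and store iron. Liver makes large amounts of glutathione, catalase and glutathione transferases, which matters for these libraries because 1 of them carried a liver profile.

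Promoter sequences are shown for 8 members because they hold the core of the antioxidant response element, written TGACNNNGC. On the gene's strand the opposite orientation reads GCNNNGTCA, and both strands were searched. RefSeq promoter windows, 250 bases before to 50 bases after the annotated start on GRCm38.p6, were matched for 31 of the 37 members. The core was present on either strand in 10 of these, 32.3%, against 14.0% of 27025 genes with a window. The others with a core were Pgd and Srxn1, in which it lies after the start. Capitals mark the core in each line, which is written on the strand of the gene.
Nfe2l2, chr2:75704879-75704913, minus strand: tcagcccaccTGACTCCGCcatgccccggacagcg
G6pdx, chrX:74428913-74428953: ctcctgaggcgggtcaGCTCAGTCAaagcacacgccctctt
Gclm, chr3:122245407-122245447, plus strand: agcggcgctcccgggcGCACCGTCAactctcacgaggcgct
Prdx1, chr4:116685450-116685490: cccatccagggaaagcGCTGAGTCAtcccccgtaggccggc
Sod1, chr16:90220690-90220730: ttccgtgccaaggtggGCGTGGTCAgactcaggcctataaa
Txnrd1, chr10:82859098-82859138: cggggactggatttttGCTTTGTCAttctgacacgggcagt
Gsta3, chr1:21240448-21240488, plus strand: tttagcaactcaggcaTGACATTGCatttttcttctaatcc
Mgst1, chr6:138140455-138140495, plus strand: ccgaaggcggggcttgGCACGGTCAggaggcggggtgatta
Such a match is a description of letters and says nothing of whether NRF2 was bound in this tissue. An element outside the window would be missed, so members without the core here can still be NRF2 targets. The median log2 fold change of knockout over control was -0.59 for the members with the core and -0.69 for those with a window but no core, both over all 6 libraries. The medians were -0.12 and -0.23 without control replicate 2, the liver-profile library described next.

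The libraries held 20108185 to 27225533 counts assigned to genes. Nothing in the labels says that libraries of a group came from separate animals, so p-values measure the spread between these libraries. Levels below are CPM, counts relative to a library total scaled by trimmed mean of M-values. Pdcd1, the targeted gene, had 19, 19 and 5 counts in the knockouts and 13, 0 and 0 in the controls, too few to check the genotype in whole fat. Control replicate 2 had a liver profile, with 11.2 CPM of the adipocyte gene Adipoq against 817 to 3649 in the other 5 libraries, and fold changes are therefore given with and without it. The other 5 are called the fat libraries. Among 14 macrophage markers other than Lpl, which adipocytes also make, 11 were higher in every knockout than in every control. This held for 9.54% of all genes tested. The groups overlapped for Mertk, Cd163 and Mrc1, with log2 fold changes of -0.21, -0.62 and 0.64 without control replicate 2. The summed level of the 14 markers was 1175 to 7180.2 CPM in the knockouts and 360.4 to 920.3 CPM in the controls. The mean log2(CPM + 1) of 12 adipocyte markers was 10.2, 9.82 and 11.1 in the knockouts and 11.4, 5.98 and 10.8 in the controls. The summed level of 4 erythroid markers was 18553 CPM in control replicate 1 and 532 to 3195 CPM elsewhere. Liver RNA was also present in control replicate 3 and knockout replicate 2, with 3879 and 654 CPM of the albumin gene Alb.

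None of the 37 members differed between knockout and control at an adjusted p under 0.05 by edgeR's quasi-likelihood test with Benjamini-Hochberg adjustment, and neither did any of the 15928 genes tested (0.0%). The smallest adjusted p of a member was 0.560, and it was 0.540 without control replicate 2, where 16729 genes were tested and 0.0% were called. DESeq2 called 525 genes (3.3%), and 452 (2.7%) without control replicate 2, with no member among them in either fit. Its smallest adjusted p for a member was 0.0833 over all 6 libraries and 0.0578 without control replicate 2. Over all 6 it gave no p to 3 members, Gclc, Gsta3 and Gstp1, so these could not be called in that fit. At an unadjusted p under 0.05, edgeR found 5 members lower and 0 higher in the knockouts, where 4.27% of all genes were lower, 4.38% higher and 8.65% either. Without control replicate 2 it found 4 lower and 0 higher, against 3.5% and 5.46% of all genes, or 8.96% in either direction.

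The fold changes of most members lay below 0. With all 6 libraries 29 of 37 did, with a median log2 fold change of -0.83 against -0.03 over all genes tested. Without control replicate 2 there were 24 of 37, and the median was -0.26 against -0.04. Without control replicates 2 and 3, the controls with the most liver RNA, the median was -0.53, with control replicate 1 as the lone control. The plot of fold changes shows the members with and without control replicate 2. Glutathione transferases and glutathione synthesis lay lowest, with all 7 and all 4 members below 0 in both fits. Both ferritin subunits lay above 0 in both. Over all 6 libraries, though, Fth1 was at 0.02 and Ftl1 at 0.15, with standard errors of 0.61 and 0.75. Knockout and control CPM did not overlap for 7 of 37 members (18.9%), where 15.2% of all genes did not overlap. The knockouts were higher for 2 members (5.41%, against 9.54% of all genes) and lower for 5 (13.5%, against 5.61%). Without control replicate 2 the number was 11 (29.7%) against 25.7%, with 5 higher (13.5%, against 13.4% of all genes) and 6 lower (16.2%, against 12.3%). Without the liver-profile library the share in each direction was thus closer to that of all genes than with it. These shares without control replicate 2 still used CPM scaled over all 6 libraries. With the 5 fat libraries scaled on their own the number was 10 (27.0%), with 5 higher and 5 lower. The share of all genes on that scale is not given here.

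**Figure D1:**
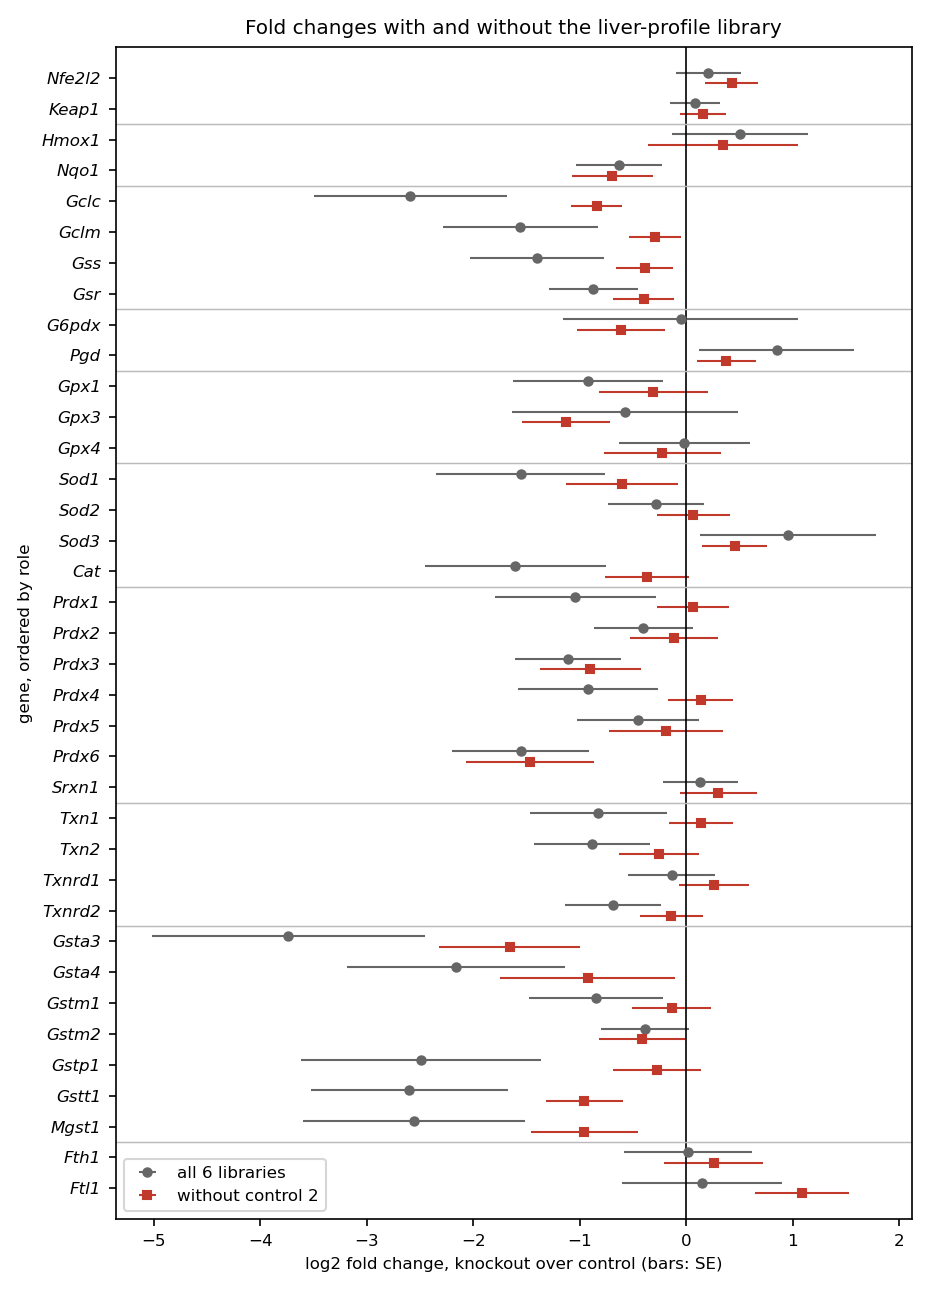
Log2 fold change of knockout over control with its standard error for each of the 37 members, grouped by role, over all 6 libraries and without control replicate 2. Most points move toward 0 when the liver-profile library is left out, and none passed the adjusted threshold.

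**Figure D2:**
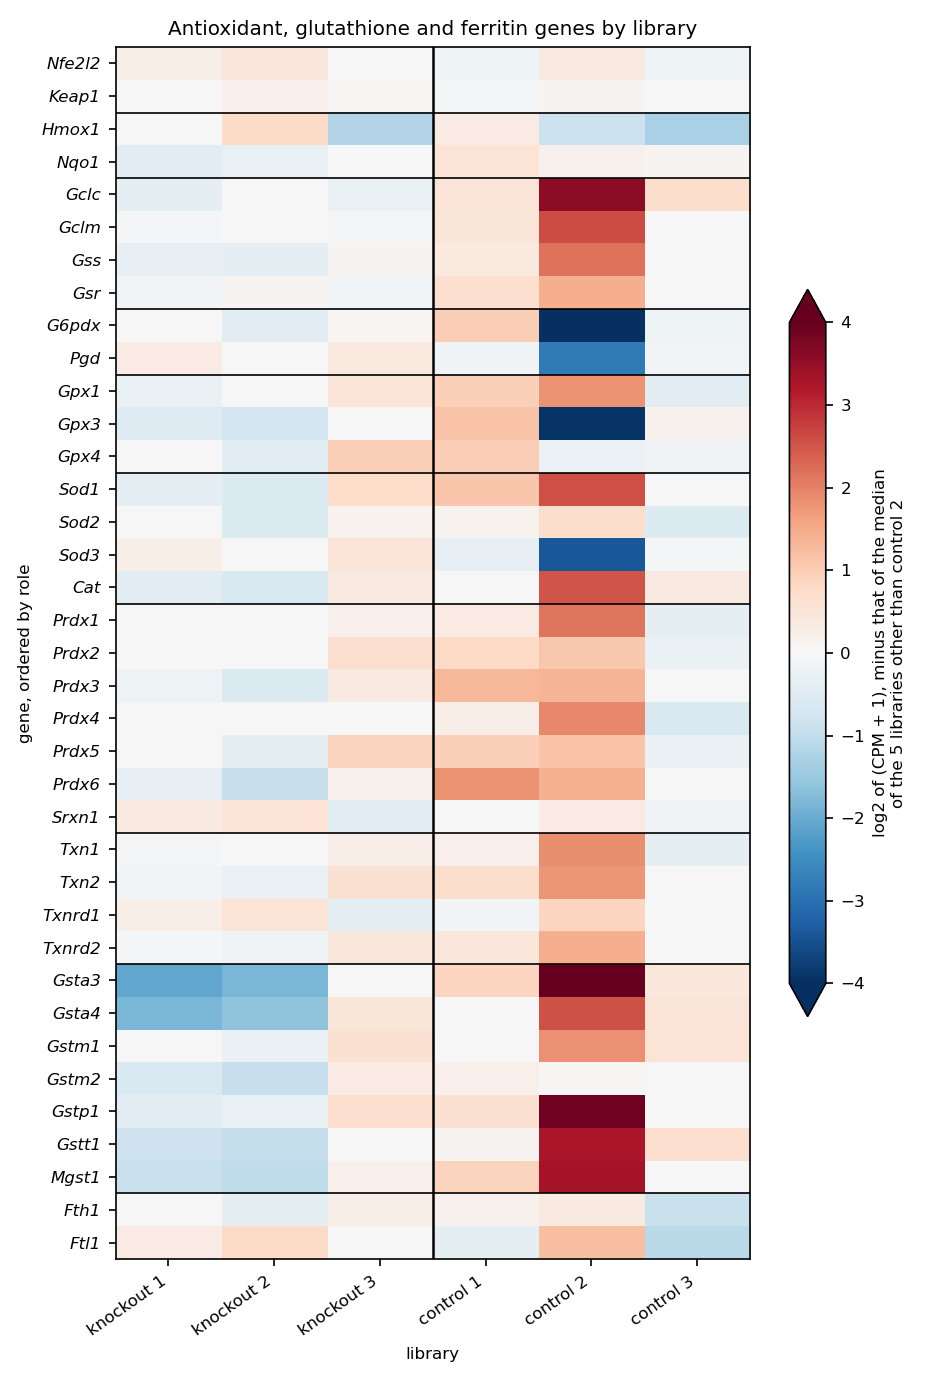
Level of each of the 37 members in each of the 6 libraries, as log2(CPM + 1) minus that of the median of the 5 fat libraries. Control replicate 2 stands apart from the other 5 libraries for most members, and control replicate 1 is the highest fat library for 19 of 37.

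Nfe2l2, the transcription factor at the head of the response, measured 92.0, 106 and 78.0 CPM in the knockouts and 69.6, 101 and 68.5 CPM in the controls. The 3 knockouts lay above the fat controls, and control replicate 2 lay among the knockouts. Its log2 fold change was 0.21 ± 0.30 (standard error, adjusted p = 0.882 by edgeR), and 0.43 ± 0.25 (adjusted p = 0.646) without control replicate 2. Keap1, its inhibitor, measured 38.6, 45.0 and 39.8 CPM against 36.3, 42.2 and 38.1 CPM. The fat controls again lay just below the knockouts, and the log2 fold change was 0.08 ± 0.24, or 0.16 ± 0.21 without control replicate 2.

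Hmox1 and Nqo1, 2 enzymes widely read as NRF2 targets, gave no common direction. Hmox1 makes the heme oxygenase that breaks heme into iron, carbon monoxide and biliverdin, and it measured 108, 183 and 47.6 CPM in the knockouts and 136, 59.1 and 43.7 CPM in the controls. The groups overlapped, with a log2 fold change of 0.50 ± 0.64 (edgeR adjusted p = 0.856), and 0.34 ± 0.71 without control replicate 2. Knockout replicate 3 and control replicate 3 were both low. The direction of Hmox1 rested on knockout replicate 2, since the log2 fold change was -0.03 without it. Nqo1, the quinone reductase (chr8:107388225-107403206, minus strand, mm10), measured 3.14, 3.58 and 4.62 CPM against 7.19, 5.28 and 5.10 CPM. Every knockout lay below every control, the liver-profile library included. The log2 fold change was -0.63 ± 0.40 (edgeR adjusted p = 0.663), and -0.69 ± 0.38 without control replicate 2. Nqo1 was the lowest member per transcript length in all 6 libraries, at 1.8004 to 4.02 FPKM.

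Of the genes for glutathione synthesis and recycling, Gclc lay lowest in the knockouts relative to the controls. Gclc encodes the catalytic subunit of glutamate-cysteine ligase, the rate-limiting enzyme of glutathione synthesis (chr9:77754535-77794485, plus strand, mm10). It measured 18.9, 24.4 and 19.6 CPM in the knockouts and 35.6, 303 and 40.4 CPM in the controls. All 3 knockouts lay close together and below all 3 controls, and the liver-profile library was far above both. The log2 fold change was -2.59 ± 0.91 (unadjusted p = 0.0276, adjusted p = 0.560 by edgeR), and -0.84 ± 0.24 (unadjusted p = 0.0120, adjusted p = 0.540) without control replicate 2. In the fit without control replicate 2, DESeq2 gave Gclc an adjusted p of 0.0578. That fit still held control replicate 3, with 3879 CPM of Alb, and the part of its liver RNA was not tested. With control replicate 1 as the lone control, the Gclc log2 fold change was -0.75.

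Gclm, the modifier subunit of the same ligase, whose promoter core is printed above, measured 60.4, 62.4 and 60.2 CPM against 87.9, 388 and 63.0 CPM. The knockouts spanned a narrow range just below control replicate 3. The log2 fold change was -1.56 ± 0.73 (edgeR adjusted p = 0.561) with all 6 libraries and -0.30 ± 0.24 (adjusted p = 0.743) without control replicate 2. When the 5 fat libraries were scaled on their own, the Gclm groups overlapped. The ratio of Gclc to Gclm counts, which no scaling affects, was 0.313, 0.390 and 0.326 in the knockouts and 0.405, 0.781 and 0.642 in the controls. No knockout ratio reached a control ratio, though control replicate 1 came close. The highest ratios were those of control replicates 2 and 3, the controls with the most Alb, and the part of liver RNA in them was not tested. Gss, glutathione synthetase, and Gsr, the reductase that restores reduced glutathione, had log2 fold changes of -0.39 and -0.40 without control replicate 2, against -1.40 and -0.88 with it. Gss overlaps Acss2 on the other strand over 22544 bases, and whether counting used strand is not given in the sources used here.

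NADPH for these reductases comes in part from the pentose phosphate pathway, through glucose-6-phosphate dehydrogenase (G6pdx) and phosphogluconate dehydrogenase (Pgd). Pgd (chr4:149149991-149166771, minus strand, mm10) measured 559, 446 and 587 CPM in the knockouts and 406, 61.8 and 415 CPM in the controls. Each knockout was above each control, though knockout replicate 2 exceeded control replicate 3 by little. This gave a log2 fold change of 0.85 ± 0.73 (edgeR adjusted p = 0.759), and 0.38 ± 0.28 (adjusted p = 0.713) without control replicate 2. G6pdx, the first enzyme of the pathway, ran from 207 to 294 CPM in the knockouts and from 11.5 to 553 CPM in the controls. Its log2 fold change was -0.05 ± 1.10, and -0.61 ± 0.41 without control replicate 2, so the pair did not lie on the same side of 0 in either fit. G6pdx overlaps Ikbkg on the other strand over 19712 bases, so the unknown strand setting limits its counts as it does those of Gss.

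Glutathione peroxidases reduce peroxides through selenocysteine, which is encoded by a TGA codon that would otherwise end the protein. The codon is shown for these 3 members and for the 2 thioredoxin reductases, since it is what sets them apart from the cysteine-based peroxidases. Capitals mark the codon, the sequences are from transcripts of GENCODE vM21 (GRCm38), and the coordinates are those of the codon. Codon numbers are counted in the longest annotated coding transcript of the gene that holds the codon, and can differ in shorter isoforms.
Gpx1, chr9:108339451-108339453, codon 47: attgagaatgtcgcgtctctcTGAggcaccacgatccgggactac
Gpx3, chr11:54907256-54907258, codon 73: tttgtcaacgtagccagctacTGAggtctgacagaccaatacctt
Gpx4, chr10:80054737-80054739, codon 129: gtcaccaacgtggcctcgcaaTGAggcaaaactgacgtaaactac
Txnrd1, chr10:82896037-82896039: ggagacatcctccagtctggctgcTGAggt
Txnrd2, chr16:18477772-18477774: ctggagcctactgtgactggttgcTGAggc
Gpx3, the secreted peroxidase of plasma and extracellular fluid (chr11:54902453-54910377, plus strand, mm10), measured 285, 239 and 407 CPM in the knockouts and 905, 26.2 and 455 CPM in the controls. It was far lower in the liver-profile library than in fat, and the knockouts lay below both fat controls, with knockout replicate 3 close to control replicate 3. Over all 6 libraries the log2 fold change was -0.58 ± 1.06 (edgeR adjusted p = 0.911), and it was -1.13 ± 0.41 (unadjusted p = 0.0340, adjusted p = 0.540) without control replicate 2. The adipocyte marker mean was 10.2, 9.82 and 11.1 in the knockouts and 11.4 and 10.8 in control replicates 1 and 3. Of the fat libraries, both this mean and Gpx3 were lowest in knockout replicate 2, then knockout replicate 1, and highest in control replicate 1. Knockout replicate 3 and control replicate 3 came in opposite order for the mean and for Gpx3. The part of adipocyte content in the Gpx3 values was not tested. Without control replicate 1 and with control replicate 2 kept, the Gpx3 log2 fold change was 0.37.

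Gpx1, the cytosolic peroxidase, measured 902, 1093 and 1557 CPM in the knockouts and 2128, 3810.45 and 809 CPM in the controls. Control replicate 3 was the lowest library and control replicate 1 the highest of the fat libraries, so the groups overlapped (log2 fold change -0.93 ± 0.71, adjusted p = 0.720 by edgeR). The value was -0.31 ± 0.51 (adjusted p = 0.875) without control replicate 2. Gpx4, which reduces lipid hydroperoxides in membranes and guards against ferroptosis, had a log2 fold change of -0.02 ± 0.61, and -0.23 ± 0.55 without control replicate 2. Counts assigned to the pseudogene Gpx4-ps2 came to 17.3% to 18.9% of those of Gpx4 in every library. The Gpx4 transcripts share 584 of 946 50-base windows (61.7%) with that pseudogene, so the count of Gpx4 is uncertain by the reads placed there.

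Superoxide dismutases turn superoxide into hydrogen peroxide, which catalase breaks down. Sod3, the extracellular enzyme (chr5:52363791-52371418, plus strand, mm10), measured 633, 536 and 763 CPM in the knockouts and 426, 50.3 and 520.5 CPM in the controls. Every knockout was above every control, and the closest pair was knockout replicate 2 and control replicate 3. For Sod3 the log2 fold change was 0.96 ± 0.83 (edgeR adjusted p = 0.762), and 0.45 ± 0.30 (adjusted p = 0.679) without control replicate 2. Sod1, the cytosolic enzyme, measured 229, 204 and 497 CPM against 642, 1794 and 299 CPM. Knockout replicate 3 exceeded control replicate 3, and the log2 fold change moved from -1.56 ± 0.79 (edgeR adjusted p = 0.584) to -0.61 ± 0.53 without the liver-profile library. Cat, catalase, moved from -1.60 to -0.37 in the same way, and Sod2, the mitochondrial dismutase, from -0.29 to 0.07.

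Among the peroxiredoxins, Prdx6 had the log2 fold change farthest from 0 in fat, and the liver-profile library hardly moved it. Prdx6, which reduces oxidised phospholipids and draws on glutathione (chr1:161240112-161251219, minus strand, mm10), measured 425, 281 and 604 CPM in the knockouts and 1877, 1438 and 534 CPM in the controls. Control replicate 3 lay between the knockouts, so the groups overlapped. Its log2 fold change was -1.56 ± 0.64 (unadjusted p = 0.04997, adjusted p = 0.560 by edgeR), and -1.47 ± 0.60 (unadjusted p = 0.0505, adjusted p = 0.558) without control replicate 2. The ratio of Prdx6 to Prdx1 counts was 0.661, 0.445 and 0.813 in the knockouts and 2.35, 0.503 and 1.08 in the controls. Control replicate 1, which also carried most erythroid RNA, had by far the highest ratio, and the part of blood in it was not tested. Prdx3, the mitochondrial peroxiredoxin, had a log2 fold change of -1.11 ± 0.50, and -0.90 ± 0.47 without control replicate 2.

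The other peroxiredoxins lay close to 0 in fat. Without control replicate 2 the log2 fold changes of Prdx1, Prdx2, Prdx4 and Prdx5 were 0.07, -0.12, 0.14 and -0.19, with standard errors of 0.31 to 0.53. With it they were -1.04, -0.40, -0.92 and -0.45. Srxn1, sulfiredoxin, which repairs overoxidised peroxiredoxins, was at 0.30 without control replicate 2 and at 0.13 with it.

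In the thioredoxin system, which feeds electrons from NADPH to peroxiredoxins, Txn2 had the smallest p with all 6 libraries. Txn2, mitochondrial thioredoxin, measured 89.0, 80.9 and 149 CPM in the knockouts and 157, 334 and 97.0 CPM in the controls, and control replicate 3 lay among the knockouts. Its log2 fold change was -0.89 ± 0.55 (edgeR adjusted p = 0.660), and -0.26 ± 0.37 without control replicate 2. Without that library, cytosolic Txn1 was at 0.14, and the reductases Txnrd1 and Txnrd2 at 0.26 and -0.14, with standard errors of 0.30 to 0.33. With all 6 libraries these 3 were at -0.83, -0.14 and -0.69. The group's median was -0.002 without control replicate 2, against -0.76 with all 6 libraries.

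Glutathione transferases couple glutathione to electrophiles, among them the aldehydes that lipid peroxidation leaves behind. All 7 had log2 fold changes below 0 in both fits, with medians of -2.49 with all 6 libraries and -0.93 without control replicate 2. Over all genes tested, 52.0% and 52.9% lay below 0. Gsta3, an alpha-class transferase (chr1:21240589-21265661, plus strand, mm10), whose promoter core is printed above, measured 50.7, 60.2 and 218 CPM in the knockouts and 398, 3694 and 294 CPM in the controls. No knockout reached a control, although knockout replicate 3 stood nearer to control replicate 3 than to the other knockouts. For Gsta3 the log2 fold change was -3.74 ± 1.28 (unadjusted p = 0.0254, adjusted p = 0.560 by edgeR), and -1.66 ± 0.66 (unadjusted p = 0.0468, adjusted p = 0.551) without control replicate 2.

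Gstt1, a theta-class transferase (chr10:75783813-75798584, minus strand, mm10), measured 24.3, 22.2 and 43.7 CPM against 47.3, 430.4 and 70.1 CPM. The knockouts again lay below all controls, by a small margin for knockout replicate 3. For Gstt1 the log2 fold change was -2.60 ± 0.93 (unadjusted p = 0.0291, adjusted p = 0.560 by edgeR), and -0.96 ± 0.36 (unadjusted p = 0.0382, adjusted p = 0.545) without control replicate 2. Mgst1, the microsomal transferase, which sits in membranes and also reduces lipid peroxides, had values of -2.56 ± 1.04 and -0.96 ± 0.50. Gsta4, which takes the lipid aldehyde 4-hydroxynonenal, had -2.16 ± 1.02 and -0.93 ± 0.82. Gstm1, Gstm2 and Gstp1 were nearer to 0 in fat, at -0.14, -0.41 and -0.27 without control replicate 2, against -0.85, -0.39 and -2.49 with it. In the fat libraries the adipocyte marker mean was lowest in knockout replicates 1 and 2, the same 2 libraries in which Gsta3, Gsta4, Gstt1 and Mgst1 were lowest, and its part in these values was not tested. The liver RNA in control replicate 3 was not removed either, and leaving out both control replicates 2 and 3 leaves control replicate 1 alone. The values were then -1.84 for Gsta3, -1.31 for Mgst1, -0.64 for Gstt1, -0.62 for Gsta4, -0.53 for Gstp1 and -0.50 for Gstm2, and Gstm1 was at 0.19.

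**Figure D3:**
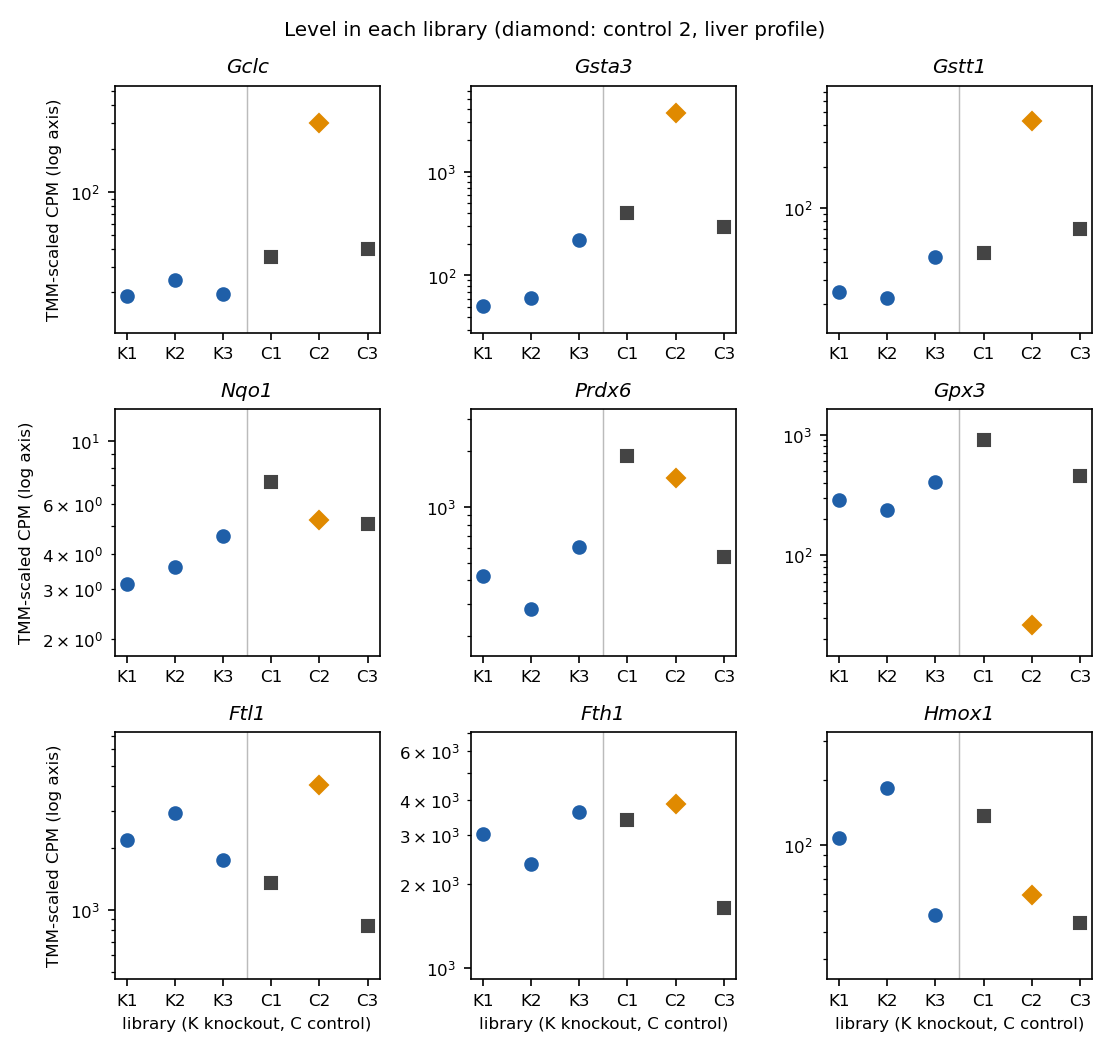
CPM on a log axis in each of the 6 libraries for members described in the text, with knockouts and controls marked apart and control replicate 2 marked as the liver-profile library. Gclc, Gsta3 and Gstt1 have every knockout below every control, and Ftl1 has every knockout above the 2 fat controls.

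Ferritin is a shell of heavy (Fth1) and light (Ftl1) subunits that holds iron, and its translation is controlled by iron-responsive elements. The loop of each element is shown because it sits in the 5′ UTR of both transcripts, so that RNA levels give only part of ferritin control. Capitals mark the loop CAGTGN, and the sequences are from GENCODE vM21 transcripts.
Fth1, chr19:9982732-9982761, plus strand: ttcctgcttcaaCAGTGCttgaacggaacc
Ftl1, chr7:45459778-45459807, minus strand: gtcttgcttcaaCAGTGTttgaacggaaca
Fth1 was the highest of the 37 members per transcript length in every library, at 1704 to 4209 FPKM, and Ftl1 ranked 2 or 3. By CPM, Ftl1 (chr7:45457944-45459884, minus strand, mm10) measured 2181, 2951 and 1735 in the knockouts and 1347, 4024 and 829.8 in the controls. All 3 knockouts were above both fat controls, and the liver-profile library was the highest of the 6. The log2 fold change was therefore 0.15 ± 0.75 (edgeR adjusted p = 0.973) with all libraries and 1.09 ± 0.44 (unadjusted p = 0.05004, adjusted p = 0.558) without control replicate 2, the largest positive value of a member in that fit.

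Fth1 (chr19:9980598-9985098, plus strand, mm10) measured 3038, 2358 and 3644 CPM in the knockouts and 3402, 3893 and 1646 CPM in the controls. The groups overlapped, and the log2 fold change was 0.02 ± 0.61 (edgeR adjusted p = 0.997), or 0.26 ± 0.46 without control replicate 2. The ratio of Ftl1 to Fth1 counts was 0.718, 1.25 and 0.476 in the knockouts and 0.396, 1.03 and 0.504 in the controls. Among the fat libraries the light chain weighed most in knockout replicates 2 and 1, while knockout replicate 3 lay between the 2 fat controls. The summed level of the 14 macrophage markers other than Lpl was also highest in these 2 libraries. It was 4660, 7180 and 1175 CPM in the knockouts and 905 and 920 CPM in control replicates 1 and 3. The part of macrophage content in the ferritin values was not tested. Counts assigned to the pseudogene Ftl1-ps1, which shares 675 of 919 50-base windows of Ftl1 (73.4%), came to 1.35% to 1.802% of those of Ftl1.

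Control replicate 2 stood at least 2-fold above the median of the 5 fat libraries for 23 of the 37 members (62.2%), where 20.8% of all genes did. It stood at least 2-fold below for 4 members (10.8%), where 34.2% of all genes did. With levels per total count rather than scaled by trimmed means, 11 members (29.7%) were at least 2-fold above, against 9.76% of all genes, and 6 were below (16.2%), against 56.1%. The largest ratios were those of Gsta3 at 16.9, Gstp1 at 15.1, Gclc at 12.4, Mgst1 at 10.1 and Gstt1 at 9.85. The 4 members at least 2-fold below were G6pdx at 4.11%, Gpx3 at 6.44%, Sod3 at 9.37% and Pgd at 13.9% of the fat median. Both pentose phosphate enzymes and both secreted enzymes were thus low in this library, while 6 of 7 transferases, catalase and all 4 glutathione synthesis genes were at least 2-fold high. Nfe2l2, Keap1, Srxn1, Gpx4, Nqo1, Gstm2 and Fth1 were among the 10 members within 2-fold of the fat median.

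**Figure D4:**
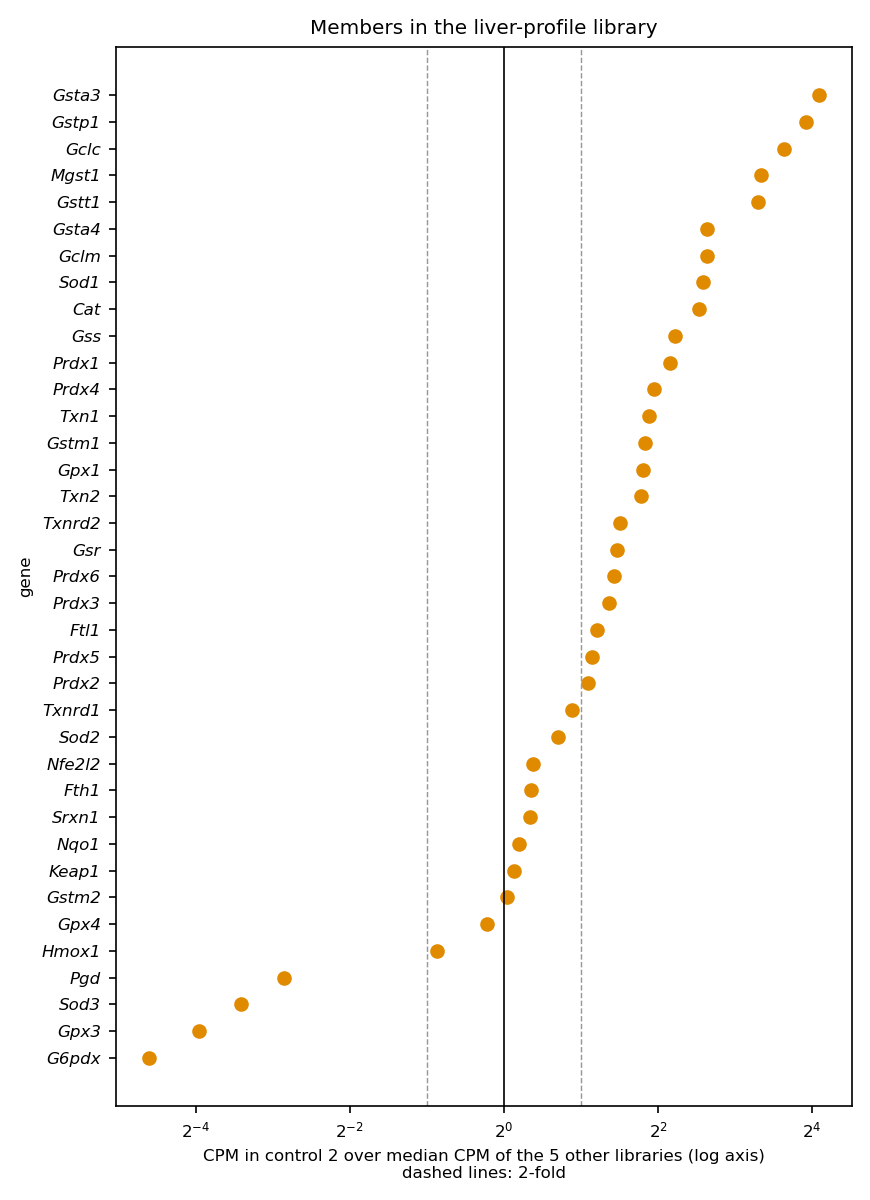
Ratio of the level in control replicate 2 to the median of the other 5 libraries for each of the 37 members, on a log axis, with a line at equal levels. Gsta3, Gstp1, Gclc, Mgst1 and Gstt1 reach 9.85 to 16.9 times the fat median, and G6pdx lies at 4.11% of it.

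Within fat, control replicate 1 was the highest of the 5 libraries for 19 of 37 members (51.4%), where it was the highest for 27.5% of all genes tested. Knockout replicate 2 was the lowest for 15 members (40.5%), against 22.8% of all genes. Control replicate 3, the other fat control, was the lowest for 10 members (27.0%), against 17.99%. For Gpx1, Prdx1, Prdx2 and Prdx4 the fat controls were the highest and the lowest fat library, and the spread between them is part of each standard error given above.

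Of 77 further genes of NRF2 signalling, glutathione, thioredoxin and iron handling, 76 were found and 72 were tested with all 6 libraries. Among these, 22 had log2 fold changes above 0 and 50 below, with a median of -0.53. With control replicate 2 left out there were 25 above and 48 below, with a median of -0.18. At an unadjusted p under 0.05 edgeR had 5 higher (6.94%, against 4.38% of all genes) and 8 lower (11.1%, against 4.27%) with all 6 libraries. In the fit without control replicate 2 it had 4 higher (5.48%, against 5.46%) and 1 lower (1.37%, against 3.5%), and it called 0 after adjustment in both fits. DESeq2 called 3 (4.17%, against 3.3% of all genes), Slc11a1 higher and Cp and Gsta2 lower, and 2 without control replicate 2 (2.74%, against 2.7%). Slc11a1, the iron and manganese exporter of the phagosome membrane, found mainly in macrophages, measured 109, 169.7 and 30.5 CPM in the knockouts and 21.6, 3.13 and 15.3 CPM in the controls. Its log2 fold change was 2.94 ± 0.90, and 2.501 ± 0.75 without control replicate 2, with DESeq2 adjusted p of 0.0324 and 0.0175. The 2 highest libraries were those with the most macrophage marker RNA, knockout replicates 1 and 2, and the part of macrophage content was not tested.

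Cp, ceruloplasmin, the copper ferroxidase that helps load iron onto transferrin, measured 79.0, 68.0 and 64.4 CPM in the knockouts and 125, 1391 and 213 CPM in the controls. Every control exceeded every knockout, with a log2 fold change of -3.03 ± 0.99 (DESeq2 adjusted p = 0.0339), and -1.25 ± 0.30 without control replicate 2 (DESeq2 adjusted p = 0.0140). Alb measured 4.02, 654 and 57.6 CPM in the knockouts and 7.38, 148656 and 3879 CPM in the controls. Control replicates 2 and 3 were thus the highest libraries for both genes. The part of liver RNA in the Cp values was not tested. Gsta2 had 2, 17 and 0 counts against 13, 346 and 44, so its call with all 6 libraries (DESeq2 adjusted p = 0.0344) rested on control replicate 2, and without it the adjusted p was 0.659. Steap3, an endosomal ferrireductase, measured 73.5, 111 and 49.98 CPM against 17.6, 23.97 and 48.0 CPM, each knockout above each control, with a log2 fold change of 1.39 and, without control replicate 2, 1.28. Akr1b8, an aldo-keto reductase of lipid aldehydes, measured 51.8, 64.7 and 25.2 CPM against 19.8, 4.20 and 14.4 CPM, with log2 fold changes of 1.88 and 1.48. Gpx8, a peroxidase of the endoplasmic reticulum, measured 16.1, 19.1 and 24.7 CPM against 10.2, 5.37 and 11.8 CPM, each knockout above each control, with log2 fold changes of 1.12 ± 0.40 and 0.87 ± 0.28. Gstm7, a further mu-class transferase, measured 4.97, 4.42 and 8.77 CPM against 5.92, 107 and 25.2 CPM, with values of -2.93 and -1.35. Hamp, the gene of the liver iron hormone hepcidin, had 0, 13 and 0 counts in the knockouts and 0, 1555 and 134 in the controls, nearly all in the library with the liver profile. None of Steap3, Akr1b8, Gpx8, Gstm7 and Hamp passed an adjusted threshold in edgeR or DESeq2.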

How the data were processed

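Per the submitters' processing notes, the tools used include fastp, featureCounts 1.5.0-p3, HISAT2 2.0.5 and StringTie 1.3.3b, and the genome build was mm10. The notes used here give neither the strand setting nor the annotation. The authors deposited raw counts per gene, used for every test, and FPKM values, used only to rank members within a library. The libraries were made from mRNA, per the labels' protocols.

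The whole count table was fitted with edgeR 4.0.16 in R 4.3.3: filterByExpr by group, TMM scaling (factors 0.559 for control replicate 2, 0.982 to 1.25 otherwise), a robust quasi-likelihood fit and Benjamini-Hochberg adjustment at 0.05 over all genes. The script was checked on simulated data. Alternatives were DESeq2 1.42.0, its size factors, other filters and each library left out. A standard error here is the log2 fold change divided by the square root of the F statistic. An exact permutation test of 3 libraries against 3 gives no two-sided p under 0.1. Replicates are numbered in record order. Between replicates of a group chi-square per degree of freedom was 56.8 or more, so each library counts once.

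Members and lists were chosen with earlier results of these data known. Values per library are given for Nfe2l2, Keap1, Hmox1, Nqo1 and both ferritins, for members whose groups do not overlap, and for the member of smallest p in each role. The 8 further pathway genes of smallest p with all 6 libraries are named. Coordinates are from GENCODE vM21 (GRCm38, the mm10 assembly).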

Additional observations from a re-analysis of the deposited data

How the results depend on the processing

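No paired analysis was possible because the titles give each library a number of its own, none shared between the groups, and the labels tie no knockout to a control. DESeq2 called 525 genes over the 6 libraries and 452 with control replicate 2 left out, against 0 by edgeR, and the cause was not tested. Leaving out any 1 library, edgeR called 0 genes, and 0 members were called under any alternative run. The members' median log2 fold change of -0.83 ranged from -1.02 to -0.26 with 1 library left out, the latter without control replicate 2, where DESeq2 also gave -0.26. Control replicate 2 was at least 2-fold above fat for 23 members, and for 11 when scaled by total counts, an alternative chosen after seeing the data.

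Of 444 log2 fold changes over 12 alternatives, 412 kept their direction and 24 of 37 members never reversed. Those 24 included all 4 glutathione synthesis genes and the transferases except Gstm1. Most of the 12 alternatives kept control replicate 2, the liver-profile library, so these counts say little about direction in fat. It was left out only in the edgeR and DESeq2 fits without it and in the fit without control replicates 2 and 3. With 1 library left out, the lowest and highest values of members that reversed were -0.028 (without knockout replicate 2) and 1.14 for Hmox1, -0.61 and 1.02 (without control replicate 1) for G6pdx, -1.13 and 0.37 (without control replicate 1) for Gpx3 and -0.50 and 0.49 (without control replicate 1) for Gpx4. They were -0.072 (without knockout replicate 2) and 0.39 for Srxn1, -0.27 (without control replicate 3) and 0.26 for Fth1 and -0.23 (without control replicate 3) and 1.09 for Ftl1. Without control replicate 2 values turned positive for Sod2 (-0.55 to 0.067), Prdx1 (-1.44 to 0.066), Prdx4 (-1.33 to 0.14), Txn1 (-1.20 to 0.14) and Txnrd1 (-0.35 to 0.26), and DESeq2 without it gave 0.063, 0.059, 0.13, 0.13 and 0.25. Without control replicates 2 and 3 the median was -0.53, Hmox1 was -0.25, Txnrd1 0.31, Gstm1 0.19 and Fth1 -0.16. With no filter Gpx4 was 0.015, and Fth1 was -0.018 by DESeq2, -0.018 with its size factors and -0.013 with at least 50 counts in 3 libraries. The cause of these reversals was not tested. Depth limits Nqo1 and Gsta4 most, the members of lowest level.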

Other observations

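Slc7a11, the cystine importer that supplies glutathione synthesis, was singled out after its values were seen. It had 62, 59 and 19 counts in the knockouts and 7, 0 and 11 in the controls, low throughout, with every knockout above every control. Its log2 fold change was 2.73 ± 1.04 (edgeR adjusted p = 0.560), and 2.28 ± 0.76 without control replicate 2, the opposite side of 0 from Gclc, which uses the cysteine it brings in.

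The ratio of Hmox1 to Blvrb counts was 1.65, 2.49 and 0.692 in the knockouts and 1.77, 0.342 and 1.05 in the controls, with the groups overlapping. Blvrb encodes a biliverdin reductase that is abundant in red cells.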
